A study of Mus musculus with 3 samples.

Results

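The *Hox* genes encode homeodomain transcription factors and lie in 4 clusters, *Hoxa* to *Hoxd*, in which genes of the same paralogue number occupy corresponding positions. All 39 mouse *Hox* genes of RefSeq were represented on the arrays. They were found through the RefSeq transcript that each probe carries, which gave 43 of the 55681 mouse probes, with 2 probes each for 4 genes, *Hoxa9*, *Hoxa13* and *Hoxb3* among them, and 1 for every other gene. Gene expression was measured in 3 sorted cell populations on 1 one-color Agilent array each, all on 1 slide.

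The cells with GFP, ES-Lhx6-GFP+ (written ES-GFP+ from here on), and those without, ES-Lhx6-GFP- (ES-GFP-), were separated by FACS from the same kind of culture, embryoid body aggregates of J14 mouse ES cells on differentiation day 12, and MGE-GFP+ cells were sorted from the medial ganglionic eminence (MGE), a ventral forebrain region, of embryos at E12.5. J14 is a single line of 129S4/SvJae background, labelled male, that carries an *Lhx6*-GFP BAC transgene, so that GFP reports *Lhx6*, a gene of early MGE-derived neurons. The labels also give the J14 cells an mCherry reporter of enhancer 692 delivered by a virus. The aggregates were pooled from many wells and had been treated with Dkk-1, a Wnt inhibitor, and SAG, an agonist of the hedgehog pathway, before both J14 populations were sorted. The embryos carried the same kind of transgene on a CD1 background and were labelled female, so origin, strain and sex differ together between MGE-GFP+ cells and both J14 populations and cannot be told apart. Because each population has 1 array, differences carry no test and no replicate error. The 2 SDs of a difference between repeat spots, 1.32-fold in each of the 3 comparisons, cover printing and reading only, so that precision is set by how few arrays there are.

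In the embryo, *Hox* genes are switched on in the order of their position, from the 3′ end of a cluster (low paralogue numbers) to the 5′ end, in domains that reach progressively less far forward. Genes of the 3′ end pattern the hindbrain, later ones pattern the spinal cord and trunk, and the forebrain, where the MGE lies, is known for the absence of *Hox* expression. The proteins bind DNA together with TALE cofactors of the Pbx, Meis and Pknox families. Retinoic acid and Cdx factors induce the clusters, and Polycomb complexes keep them silent.

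The promoters of 22 of the 39 genes were in the RefSeq table used here (GRCm38.p6, 24 windows of 300 bases that span an annotated start, most of each lying before it). The 4 printed here belong to genes of paralogue numbers 1 to 4 whose probes stood above the control probes in ES-GFP- cells; windows for *Hoxa4*, *Hoxb2* and *Hoxb3*, which behaved in the same way, were not used here. Capitals mark matches, on either strand, to AGGTCA, a half-site of nuclear receptors such as those for retinoic acid, to TGATTNAT, a joint site of Pbx and Hox proteins, or to TATAAA, the TATA box.
Hoxa2, chr6:52164782-52165081, minus strand: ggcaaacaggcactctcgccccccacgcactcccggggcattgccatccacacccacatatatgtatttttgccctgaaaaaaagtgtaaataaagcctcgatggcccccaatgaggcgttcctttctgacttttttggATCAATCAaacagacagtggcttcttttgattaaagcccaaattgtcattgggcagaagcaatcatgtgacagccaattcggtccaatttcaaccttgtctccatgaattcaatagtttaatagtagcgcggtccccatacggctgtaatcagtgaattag
Hoxa3, chr6:52213018-52213317, minus strand: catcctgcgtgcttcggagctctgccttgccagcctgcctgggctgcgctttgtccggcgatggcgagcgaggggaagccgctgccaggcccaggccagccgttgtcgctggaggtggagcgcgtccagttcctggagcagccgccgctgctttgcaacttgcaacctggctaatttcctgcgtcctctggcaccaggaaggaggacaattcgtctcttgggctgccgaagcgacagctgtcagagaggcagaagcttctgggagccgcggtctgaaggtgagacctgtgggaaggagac
Hoxb4, chr11:96318017-96318316, plus strand: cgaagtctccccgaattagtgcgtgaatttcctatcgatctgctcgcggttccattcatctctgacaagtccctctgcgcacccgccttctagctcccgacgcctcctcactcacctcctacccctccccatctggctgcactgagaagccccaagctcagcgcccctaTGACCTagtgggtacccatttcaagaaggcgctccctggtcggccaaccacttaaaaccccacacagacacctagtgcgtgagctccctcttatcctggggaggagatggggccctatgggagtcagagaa
Hoxc4, chr15:103034145-103034444, plus strand: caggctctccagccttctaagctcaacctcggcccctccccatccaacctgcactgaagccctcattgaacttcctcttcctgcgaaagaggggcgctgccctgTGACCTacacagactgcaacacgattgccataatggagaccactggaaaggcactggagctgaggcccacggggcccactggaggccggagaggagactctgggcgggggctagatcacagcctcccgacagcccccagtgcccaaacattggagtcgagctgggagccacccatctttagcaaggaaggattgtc
The *Hoxa2* window held TGATTNAT on the minus strand of the printed sequence, the *Hoxb4* and *Hoxc4* windows each held AGGTCA on the minus strand, and none of the 3 sets of letters was in the *Hoxa3* window. That *Hoxa3* window lies between the windows of *Hoxa6* and *Hoxa7*, out of paralogue order. Whether *Hoxa3* has another start nearer to *Hoxa2* was not determined here. Among the 24 *Hox* windows, AGGTCA was in 7 (29.2%, compared with 16.3% of all 32851 windows), TGATTNAT in 2 (8.33%, compared with 3.22%) and TATAAA in 4 (16.7%, compared with 13.6%). The *Hox* windows held a median of 14.5 CpG dinucleotides, from 4 in windows of *Hoxa9*, *Hoxd4* and *Hoxd11* to 45 in that of *Hoxa13*, and all windows a median of 7. These matches describe the letters only.

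To set a level that does not come from mouse transcripts, each probe was compared with the 95th percentile of 106 control probes, made for E1A of adenovirus or for ERCC spike-in RNA, on its own array, an intensity of 377 for ES-GFP+, 208 for ES-GFP- and 152 for MGE-GFP+ cells. By this choice, 6 of the 106 control probes were themselves above the percentile on each array. Intensities are background-subtracted fluorescence on a linear scale. The ES-GFP+ array stood apart, since the control probes had a median intensity of 69.9 there and of 11.5 and 7.73 on the ES-GFP- and MGE-GFP+ arrays, and 86 of the 106 were called well above background there compared with 34 on each of the others. On the scale used for differences, 105 of the 106 control probes were higher on the ES-GFP+ than on the ES-GFP- array, with a median log2 difference of 2.39, whereas the median between the MGE-GFP+ and ES-GFP- arrays was 0.02. The comparison between the last 2 arrays is therefore given first among the differences.

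Few *Hox* probes exceeded the control probes, and most of those that did belonged to the 3′ part of the clusters in ES-GFP- cells. Above the control percentile were 11 of 43 *Hox* probes (25.6%) in ES-GFP- cells, where 46.9% of all mouse probes were. The counts were 6 (14.0%) in ES-GFP+ cells, where 36.8% of all mouse probes were above it, and 3 (6.98%) in MGE-GFP+ cells, with 43.3% of all mouse probes. The share of *Hox* probes was below the background share on every array. On at least 1 array 12 probes of 11 genes were above the percentile, compared with 50.3% of all mouse probes, and 31 probes were within the control range on all 3.

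By paralogue number, 8 of the 14 probes of groups 1 to 4 were above the control percentile in ES-GFP- cells, 2 in ES-GFP+ cells and 0 in MGE-GFP+ cells. By gene these were 7 of 12 (58.3%), near the 57.5% of all genes above it on that array, 2 (16.7%, compared with 47.0% of all genes) and 0 (compared with 52.5%). Of the 16 probes of groups 5 to 9, 2 were above it on each array. Of the 13 probes of groups 10 to 13, 2 were above it in ES-GFP+ cells and 1 on each other array. By cluster, the counts in ES-GFP+, ES-GFP- and MGE-GFP+ cells were 2, 5 and 2 of 14 for *Hoxa*, 2, 4 and 0 of 11 for *Hoxb* and 2, 2 and 1 of 9 for *Hoxc*. None of the 9 *Hoxd* probes was above it on any array.

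**Figure D1:**
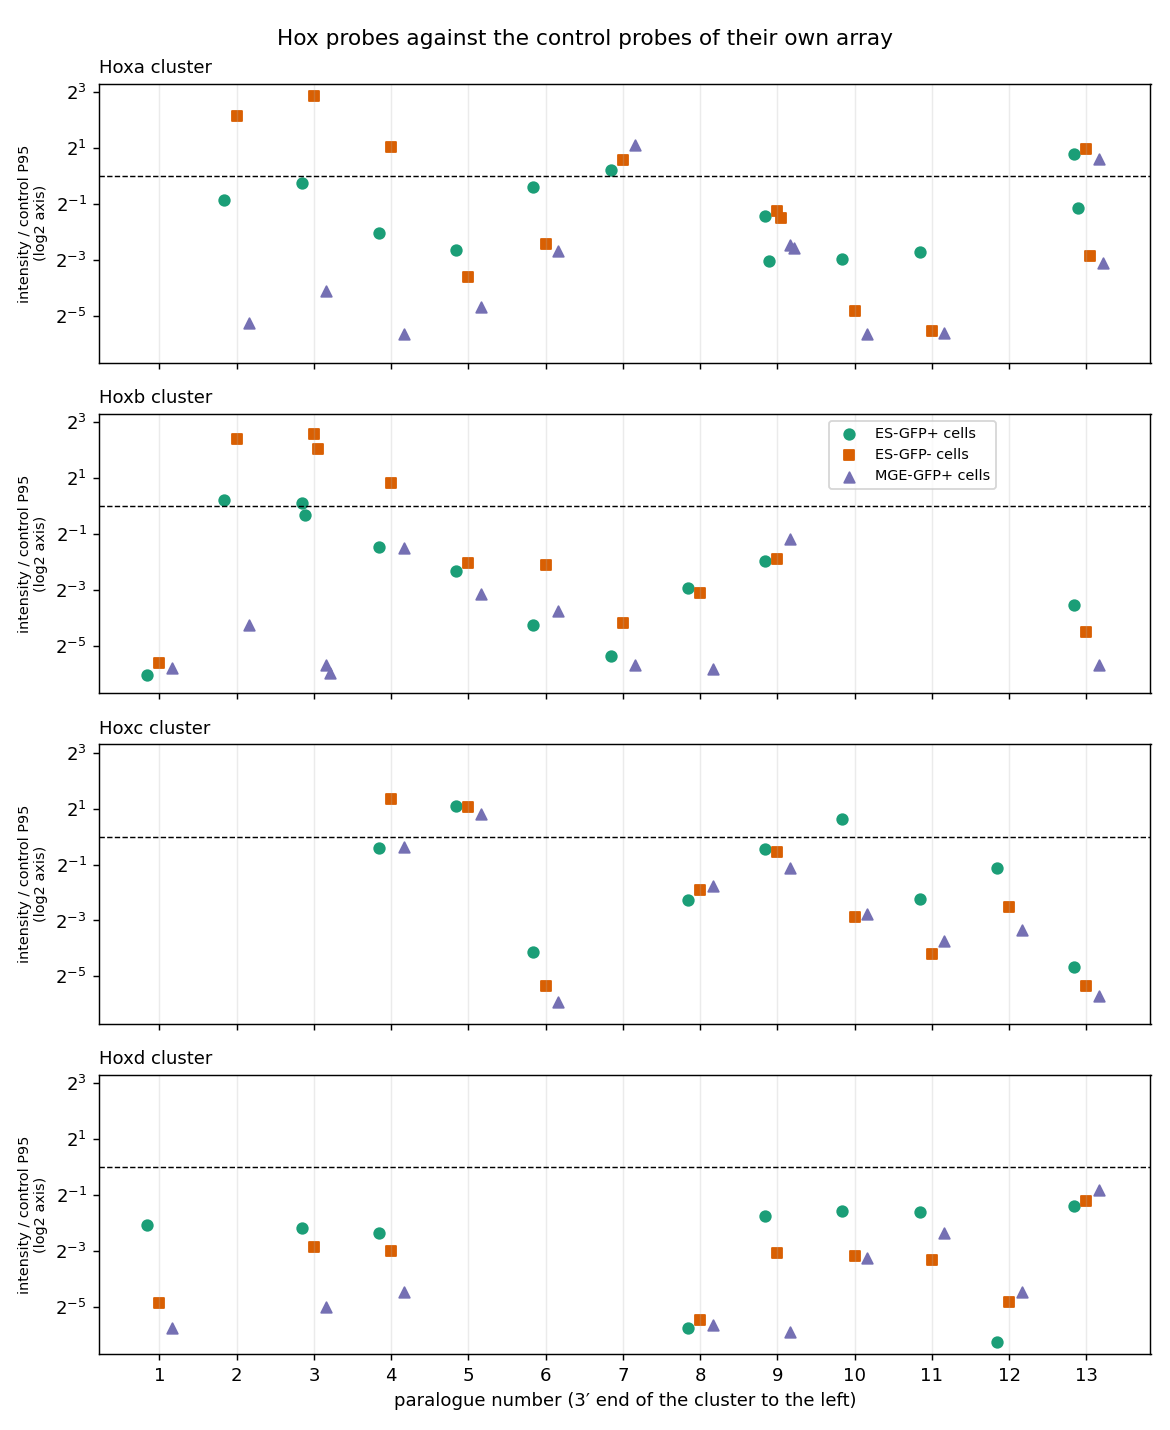
Intensity of *Hox* probes divided by the 95th percentile of the control probes (P95) of its own array, on a log2 axis, by paralogue number and cluster; each point is 1 probe on 1 array, and ES-GFP+, ES-GFP- and MGE-GFP+ stand for ES-GFP+, ES-GFP- and MGE-GFP+ cells. The ES-GFP- points of paralogues 2 to 4 of *Hoxa* and *Hoxb* and of *Hoxc4* lie above the dashed line at 1, and all 9 *Hoxd* probes lie below it on every array.

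The distance of the nearest *Hox* probes from the threshold differed between arrays. In ES-GFP- cells the dimmest probe above it was *Hoxa7* at 306 and the brightest below it *Hoxc9* at 142. In MGE-GFP+ cells these were a probe of *Hoxa13* at 232 and *Hoxc4* at 118. In ES-GFP+ cells they lay closer together, a probe of *Hoxb3* at 407 and *Hoxa3* at 313. With the 99th percentile of the control probes instead, 1, 5 and 0 *Hox* probes were above it in ES-GFP+, ES-GFP- and MGE-GFP+ cells, compared with 24.0%, 26.8% and 24.8% of all mouse probes. The 5 in ES-GFP- cells were the brightest there, those of *Hoxa2*, *Hoxa3* and *Hoxb2* and both of *Hoxb3*. The 1 in ES-GFP+ cells was that of *Hoxc5*. *Hoxa4*, *Hoxb4*, *Hoxc4* and *Hoxc10* were therefore not above it on any array.

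In ES-GFP- cells the highest values relative to the control probes were those of *Hoxa* and *Hoxb* genes in paralogue groups 2 and 3. Genes of these groups specify the segments (rhombomeres) of the hindbrain. The highest in ES-GFP+ cells was *Hoxc5*, at 2.13 times the control percentile, and in MGE-GFP+ cells *Hoxa7*, at 2.14 times. The intensity of *Hoxa2* (NM_010451), which specifies the second rhombomere and the second arch, was 207 in ES-GFP+, 906 in ES-GFP- and 4.00 in MGE-GFP+ cells. The intensity of *Hoxa3* (NM_010452), needed for organs of the third arch, was 313 in ES-GFP+, 1491 in ES-GFP- and 8.67 in MGE-GFP+ cells. Both genes were above the control range in ES-GFP- cells alone, and neither was called well above background in MGE-GFP+ cells. The probes lie at chr6:52112595-52112654 and chr6:52119087-52119146 in mm9, and were not placed in an exon or intron because no annotation of that build was used.

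*Hoxb2* (NM_134032), a hindbrain gene needed for facial motor neurons, had an intensity of 439 in ES-GFP+, 1108 in ES-GFP- and 8.02 in MGE-GFP+ cells. The brighter probe of *Hoxb3* (NM_001079869), another gene of the caudal hindbrain, was 407 in ES-GFP+, 1245 in ES-GFP- and 2.98 in MGE-GFP+ cells. Its other probe gave 300.4, 859 and 2.44 in the same order. Both genes had a probe above the control range in the 2 J14 populations and none called well above background in MGE-GFP+ cells, and the 2 probes of *Hoxb3* ordered the 3 populations alike. The *Hoxb2* probe lies at chr11:96215122-96215181 and the *Hoxb3* probes at chr11:96207114-96207173 and chr11:96209002-96209061 (mm9).

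In paralogue group 4, expressed from the caudal hindbrain backwards, 3 of the 4 genes showed the same order. *Hoxa4* (NM_008265; chr6:52140287-52140346 in mm9) was at 92.3 in ES-GFP+, 421 in ES-GFP- and 2.99 in MGE-GFP+ cells. *Hoxb4* (NM_010459) was at 137 in ES-GFP+, 373 in ES-GFP- and 53.9 in MGE-GFP+ cells. *Hoxc4* (NM_013553) was at 284 in ES-GFP+, 523 in ES-GFP- and 118 in MGE-GFP+ cells. All 3 were above the control range in ES-GFP- cells alone, and *Hoxd4* was within it on every array, at 72.9, 25.9 and 6.89 in ES-GFP+, ES-GFP- and MGE-GFP+ cells. *Hoxb1*, an early hindbrain gene, and *Hoxd1* were also within the control range on every array. The probe of *Hoxb1* was printed 10 times, and its intensity over the kept spots was 5.84 ± 1.17 (SD, n = 8 spots) in ES-GFP+, 4.30 ± 0.379 (SD, n = 10 spots) in ES-GFP- and 2.79 ± 0.179 (SD, n = 10 spots) in MGE-GFP+ cells. The intensity of *Hoxd1* was 89.8, 7.19 and 2.81, in ES-GFP+, ES-GFP- and MGE-GFP+ cells.

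A few genes departed from the 3′ pattern. *Hoxa7* (NM_010455), a gene of the trunk, was at 433 in ES-GFP+, 306 in ES-GFP- and 325 in MGE-GFP+ cells. *Hoxc5* (NM_175730), a gene of the cervical spinal cord, was at 804, 431 and 264 in the same order. One probe of *Hoxa13* (NM_008264), a gene of the limb and hindgut, was at 648, 408 and 232. These were the 3 probes above the control percentile on all arrays, MGE-GFP+ included, at 1.15 to 2.14 times it. A small share of the control probes was above it too, and none of the 3 exceeded the control 99th percentile in MGE-GFP+ cells. The other probe of *Hoxa13* was within the control range on every array, at 169, 28.6 and 17.3, so the 2 probes of this gene disagreed.

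*Hoxc10* (NM_010462; chr15:102801857-102801916 in mm9), a gene of the lumbar spinal cord, was at 583 in ES-GFP+, 28.5 in ES-GFP- and 22.2 in MGE-GFP+ cells. It was the only *Hox* gene above the control range in ES-GFP+ cells and within it on both other arrays. Its neighbours *Hoxc9* (277, 142 and 69.0), *Hoxc11* (79.8, 11.4 and 11.3) and *Hoxc12* (173, 36.1 and 15.1, each in ES-GFP+, ES-GFP- and MGE-GFP+ cells) were within the control range on every array.

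The 31 probes within the control range on all arrays belonged to 29 genes. By paralogue number, 6 of the probes were from groups 1 to 4, 14 from groups 5 to 9 and 11 from groups 10 to 13. Their intensities ran from 4.97 to 284 (median 76.1) in ES-GFP+, from 4.29 to 142 (median 24.2) in ES-GFP- and from 2.51 to 86.2 (median 6.85) in MGE-GFP+ cells. They included those of *Hoxa5*, *Hoxa6*, *Hoxa9*, *Hoxa10* and *Hoxa11*, all *Hoxb* genes from *Hoxb5* to *Hoxb13*, *Hoxc6*, *Hoxc8*, *Hoxc9*, *Hoxc11*, *Hoxc12* and *Hoxc13*, and all 9 *Hoxd* genes. Of these, *Hoxa6* was the brightest in ES-GFP+ cells, at 284, 38.2 and 23.5 in ES-GFP+, ES-GFP- and MGE-GFP+ cells. In the *Hoxd* cluster, *Hoxd13* was the brightest on every array, at 144, 88.5 and 86.2. *Hoxa11*, printed 10 times, gave 57.5 ± 10.2 (SD, n = 10 spots) in ES-GFP+, 4.44 ± 0.330 (SD, n = 9 spots) in ES-GFP- and 3.08 ± 0.391 (SD, n = 9 spots) in MGE-GFP+ cells.

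To compare populations, log2 intensities were set relative to the 75th percentile of each array and probes of a gene were averaged. Where a gene was not well above background on 1 of the arrays, the difference is a bound against the lowest scaled signal called well above background there. Both comparisons with ES-GFP- cells share that array. The last comparison shares an array with each of the others.

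In MGE-GFP+ cells the genes of the 3′ part of *Hoxa* and *Hoxb* were far lower than in ES-GFP- cells, while genes of higher paralogue number differed less. At least 4-fold lower were *Hoxa2*, *Hoxa3*, *Hoxa4*, *Hoxb2*, *Hoxb3* and *Hoxb4*, 6 of the 27 *Hox* genes with a value (22.2%), compared with 6.8% of all genes (8.48% were 4-fold different in either direction), and all 6 were above the control range in ES-GFP- cells (5.12% of all genes were at least 4-fold lower from above it). No *Hox* gene was at least 4-fold higher, compared with 1.69% of all genes, or 1.4% counting those above the control range in MGE-GFP+ cells. *Hoxa2* was at least 51.2-fold lower, *Hoxa3* at least 84.3-fold, *Hoxa4* at least 23.8-fold and *Hoxb2* at least 62.7-fold. The probes of *Hoxb3* were at least 70.4-fold and 48.6-fold lower, and *Hoxb4*, the only one of the 6 called on both arrays, was 4.72-fold lower. *Hoxc4*, with a log2 difference of -1.59, was 3.02-fold lower.

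These bounds depend on the floor. With the control percentile of each array as the floor, the log2 differences were at most -2.03 for *Hoxa2*, -2.74 for *Hoxa3*, -2.32 for *Hoxb2* and -2.22 for *Hoxb3*, so that these 4 genes stayed at least 4-fold lower, as they did under every alternative run, and *Hoxa4* and *Hoxb4* did not, at -0.92 and -0.74. *Hoxa4* fell below 4-fold in that setting alone. *Hoxb4* also did so with 50th percentile scaling, quantile normalization, normexp background correction, median signals and the deposited values. The median log2 difference was -3.41 over the 10 genes of paralogue groups 1 to 4 with a value (-2.03 over 7 with the control floor and -1.90 in the deposited values), -0.45 over the 11 of groups 5 to 9 and 0.11 over the 6 of groups 10 to 13, compared with -0.06 over all genes (0.25 with scaling to the 50th percentile). Over all 27 it was -0.55, with 20 genes lower and 7 higher. Of these values 12 are bounds (11 on the lower side), whose direction follows from the call on 1 array alone. With the control percentile as the floor only 1 gene of groups 10 to 13 kept a value (-0.26) and 2 of groups 5 to 9 did (median 0.24). The log2 differences of the genes above the control range on all arrays were 0.64 for *Hoxa7*, -0.16 for *Hoxc5* and, for the brighter probe of *Hoxa13*, -0.26, the last pair within 2 SDs of repeat spots.

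**Figure D2:**
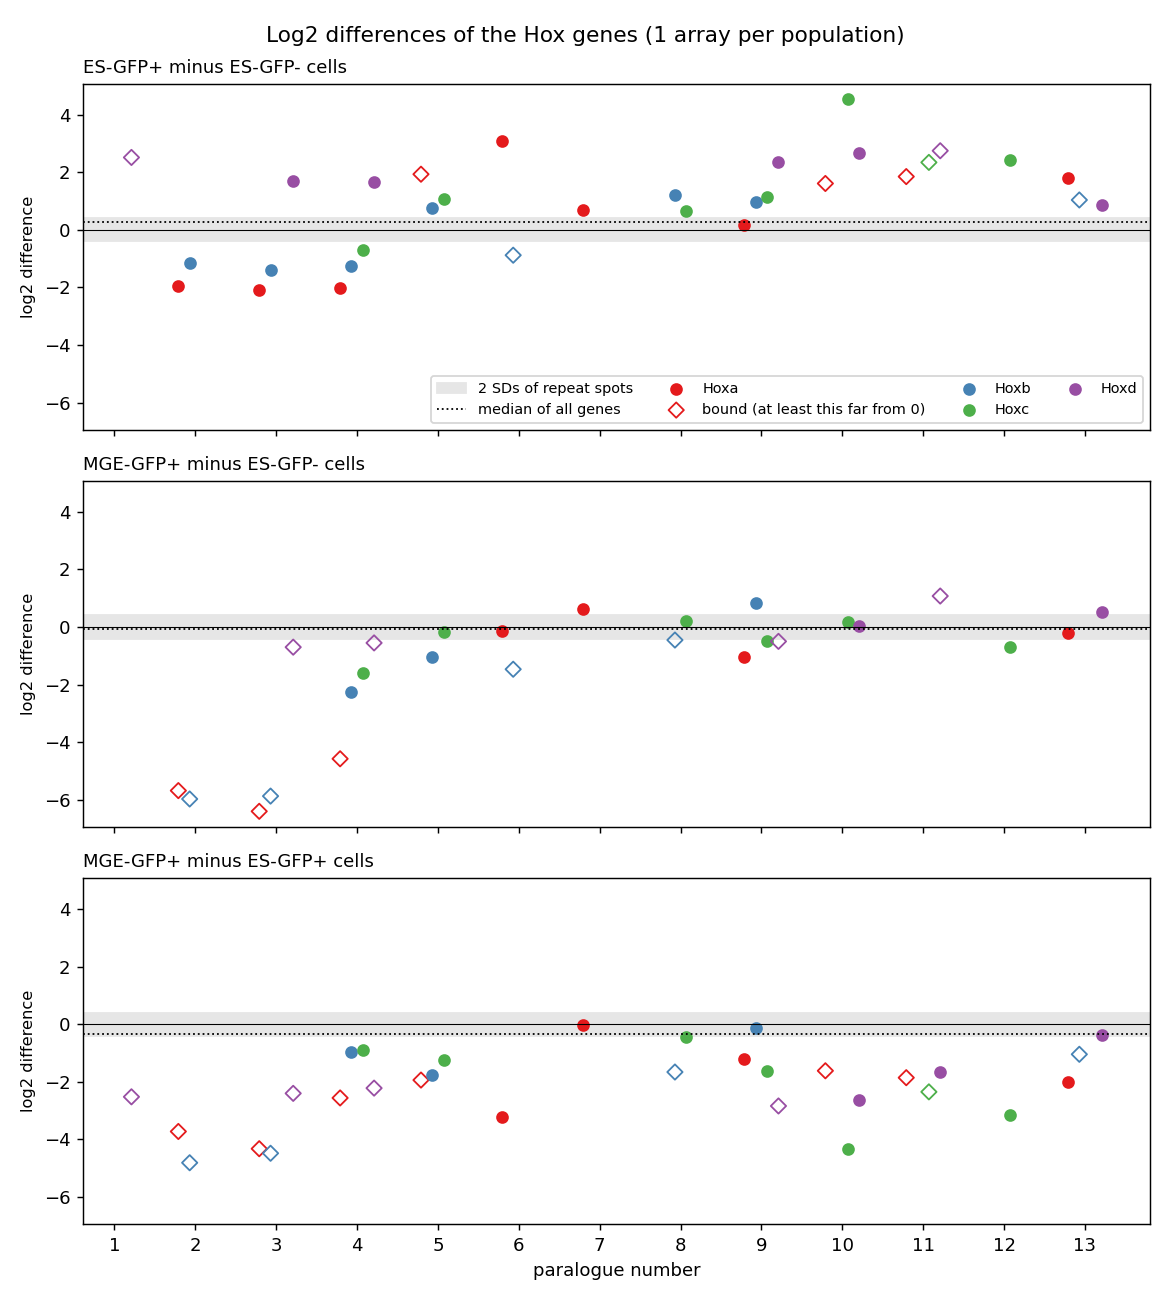
Log2 difference of *Hox* genes with a value in the 3 comparisons of sorted populations, by paralogue number and coloured by cluster; open diamonds are bounds, the grey band is 2 SDs of repeat spots and the dotted line the median of all genes. Between MGE-GFP+ and ES-GFP- cells the lowest values, down to at most -6.40 for *Hoxa3*, are those of paralogues 2 to 4, and between ES-GFP+ and ES-GFP- cells the same paralogues of *Hoxa* and *Hoxb* lie below 0 and *Hoxc10* is highest at 4.53.

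Between the 2 populations sorted from J14 aggregates, the same 3′ genes were lower in ES-GFP+ than in ES-GFP- cells, by smaller amounts. *Hoxa2* was 3.88-fold, *Hoxa3* 4.22-fold and *Hoxa4* 4.04-fold lower, with log2 differences of -1.95, -2.08 and -2.01. *Hoxb2*, the 2 probes of *Hoxb3*, and *Hoxb4* differed by -1.16, -1.44, -1.34 and -1.27 on the log2 scale, and *Hoxc4* by -0.71. These 7 genes are all those of groups 1 to 4 above the control range on either array, and each was past 2 SDs of repeat spots. Against the control floor the differences of *Hoxa2* and *Hoxa3* were at most -1.09 and -1.81, and no *Hox* gene was 4-fold different.

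In the same comparison *Hoxc10* was 23.1-fold higher in ES-GFP+ cells, a log2 difference of 4.53 that was 1.66 against the control floor. Under every other alternative run it remained at least 4-fold higher. *Hoxc5* had a log2 difference of 1.07 and *Hoxa7* of 0.68. Of the 33 *Hox* genes with a value, 25 were higher and 8 lower in ES-GFP+ cells. Of these values 8 are bounds (7 of them on the higher side), whose direction follows from the call on 1 array alone. The median log2 difference was 1.14, compared with 0.27 over all genes (-0.18 with scaling to the 50th percentile). At least 4-fold were 2 lower (6.06%, compared with 1.75% of all genes) and 8 higher (24.2%, compared with 8.27% of all genes), among 10% of all genes in either direction. The 2 lower, *Hoxa3* and *Hoxa4*, were above the control range in ES-GFP- cells (1.6% of all genes were at least 4-fold lower from above it). Of the 8 higher, *Hoxc10* alone was above the control range in ES-GFP+ cells (0.681% of all genes were at least 4-fold higher and above it there), and *Hoxa6*, *Hoxc11*, *Hoxc12*, *Hoxd1*, *Hoxd9*, *Hoxd10* and *Hoxd11* were within it on both arrays. The excess of higher genes moved with the control probes. Of the 31 *Hox* probes within the control range, 26 were higher on the ES-GFP+ array, with a median log2 difference of 1.67, compared with the 2.39 of the control probes given above; the part of the array's background in these differences was not tested. The split of 2 lower and 8 higher became 3 and 5 with scaling to the 50th percentile and 4 and 2 after quantile normalization. It became 0 and 1 with normexp background correction, 0 and 2 with median signals and 2 and 1 in the deposited values.

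By position, the median log2 difference between ES-GFP+ and ES-GFP- cells was -1.16 over 11 genes of groups 1 to 4, 1.02 over 12 genes of groups 5 to 9 and 2.10 over 10 genes of groups 10 to 13. The first stayed below 0 under every alternative run. The median of groups 5 to 9 became 0.15 when arrays were quantile normalized and 0.010 in the deposited values, with 6 genes lower and 6 higher in both, and that of groups 10 to 13 became 0.47 in the deposited values. In groups 1 to 4 the genes on the higher side included *Hoxd1*, *Hoxd3* and *Hoxd4*, all within the control range on both arrays. The 2 probes of *Hoxa9* disagreed in sign, with log2 differences of 0.83 and -0.50.

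Between MGE-GFP+ and ES-GFP+ cells, all 32 *Hox* genes with a value were lower in MGE-GFP+ cells at the main scaling, but 16 of these values are bounds whose direction follows from the call on the ES-GFP+ array alone. The median log2 difference was -1.97, compared with -0.36 over all genes (0.40 with scaling to the 50th percentile). The control probes were lower in the same comparison, 98 of 106 of them, with a median of -2.35, and the part of the background in these values was not tested. With scaling to the 50th percentile, 4 of the 32 genes were on the higher side, and 6 of 27 were after quantile normalization. At least 4-fold lower were 16 genes (50%, compared with 13.5% of all genes, and 14% in either direction), and 11 of the 16 are such bounds. With a probe above the control range in ES-GFP+ cells were *Hoxa13*, *Hoxb2*, *Hoxb3* and *Hoxc10* (12.5%, compared with 1.91% of all genes by the same rule). *Hoxa13* was counted only through the mean of its probes, since the one above the control range was 2.15-fold lower and the one within it 7.53-fold, and it was not among the 15 genes left with the brightest probe of each gene. None was at least 4-fold higher, compared with 0.533% of all genes, or 0.463% counting those above the control range in MGE-GFP+ cells. *Hoxb2* was at least 28.0-fold lower and the brighter probe of *Hoxb3* at least 26.0-fold, and *Hoxc10* was 20.2-fold lower. Against the control floor these differences were -1.16, -1.05 and -1.57 on the log2 scale and none reached 4-fold. *Hoxb4*, at -0.97, was on the other side after quantile normalization (0.17) and in the deposited log2 values (0.35), and *Hoxa7*, at -0.04, was within 2 SDs of repeat spots.

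Of all genes, 47.0%, 57.5% and 52.5% were above the control percentile in ES-GFP+, ES-GFP- and MGE-GFP+ cells, shares that apply to every list below. The TALE cofactors of Hox proteins were measured in full and were above it on every array, all 9 of them. Their median log2 difference was 0.026 (-0.42 with scaling to the 50th percentile) between ES-GFP+ and ES-GFP- cells, 0.48 between MGE-GFP+ and ES-GFP- cells and 0.31 between MGE-GFP+ and ES-GFP+ cells. Over the main setting and all alternatives run, these medians ranged from -0.42 to 0.073, from 0.32 to 0.78 and from 0.30 to 1.06, and such ranges follow for each list in the same order. *Meis2* was at 3163 in ES-GFP+, 9800 in ES-GFP- and 430 in MGE-GFP+ cells, 2.74-fold lower in ES-GFP+ and 15.6-fold lower in MGE-GFP+ than in ES-GFP- cells. This probe ordered the populations as the 3′ *Hox* genes did. *Meis1* was at 2945, 6662 and 5267, so that MGE-GFP+ cells were close to ES-GFP- cells, with a log2 difference of 0.21 between them. *Pknox2* was at 1324, 692 and 816, and *Pbx4* at 1179, 1308 and 473.

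Of 14 genes that induce *Hox* clusters or handle retinoic acid, 5, 6 and 5 were above the control percentile in ES-GFP+, ES-GFP- and MGE-GFP+ cells. *Cyp26b1*, an enzyme that degrades retinoic acid, was at 548 in ES-GFP+, 4134 in ES-GFP- and 81.7 in MGE-GFP+ cells, 6.67-fold lower in the first and 34.6-fold lower in the last than in ES-GFP- cells. It was within the control range in MGE-GFP+ cells, and the latter log2 difference ranged from -5.11 to -4.15 over the main setting and all alternatives run. *Crabp1*, a binding protein of retinoic acid, was the brightest of the list on every array, at 13451, 25275 and 14756. For the receptor genes, the brighter probe of *Rara* was at 386, 501 and 187 and that of *Rarb* at 275, 253 and 490. *Aldh1a2*, which makes retinoic acid, and *Cdx1*, *Cdx2*, *Cdx4* and *T*, which mark the posterior embryo, were within the control range on every array. The median log2 differences of the list were 0.45 between the J14 populations, -0.58 between MGE-GFP+ and ES-GFP- cells and -1.08 between MGE-GFP+ and ES-GFP+ cells; the first and the last changed sign after quantile normalization (-0.40 and 0.20), and the ranges were -0.40 to 0.45, -0.58 to -0.14 and -1.18 to 0.20.

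The regulators of hindbrain segments did not move as a group. Of 6 genes, 4, 5 and 3 were above the control percentile, with medians of 0.16, 0.33 and -0.11 in the 3 comparisons in the order just given, the first and last of which changed sign after quantile normalization (-0.45 and 0.31) and with 50th percentile scaling (-0.28 and 0.64). The ranges were -0.45 to 0.36, 0.33 to 1.63 and -0.11 to 1.04. *Irx3*, expressed along the neural tube behind the forebrain, was at 417 in ES-GFP+, 4794 in ES-GFP- and 2.89 in MGE-GFP+ cells. It was 10.2-fold lower in ES-GFP+ and at least 271-fold lower in MGE-GFP+ than in ES-GFP- cells. Over the main setting and all alternatives run, the latter log2 difference ranged from -10.1 to -4.43, so the size of this bound depends on the floor. *Gbx2* and *Epha4* were highest in MGE-GFP+ cells. *Gbx2*, of the anterior hindbrain, was at 514, 368 and 1659 in ES-GFP+, ES-GFP- and MGE-GFP+ cells, and *Epha4*, an ephrin receptor gene, at 444, 483 and 1018. Both are also expressed outside the hindbrain.

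**Figure D3:**
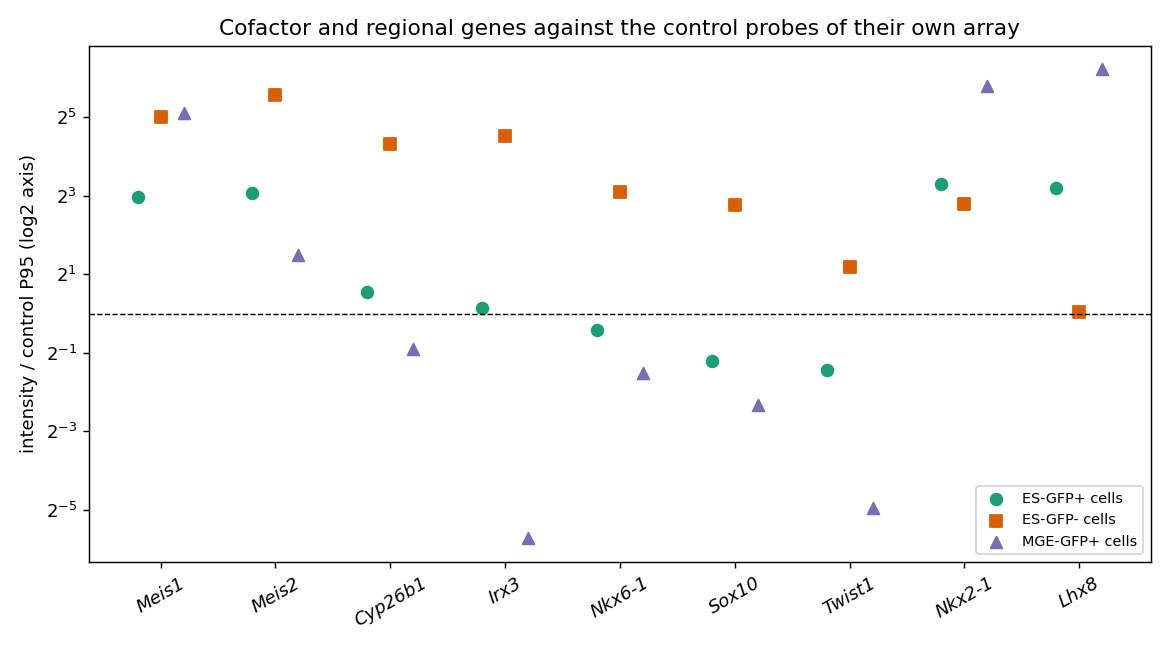
Intensity of cofactor and regional genes divided by the 95th percentile of the control probes (P95) of their own array, on a log2 axis, with 1 point per array and the dashed line at 1; ES-GFP+, ES-GFP- and MGE-GFP+ stand for the 3 sorted populations. *Meis2*, *Cyp26b1*, *Irx3*, *Nkx6-1*, *Sox10* and *Twist1* are highest in ES-GFP- cells, and *Nkx2-1* and *Lhx8* in MGE-GFP+ cells.

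Polycomb and trithorax genes were above the control percentile in 16 of 18 cases on each array, with median log2 differences of -0.0043, 0.46 and 0.37 in the order used above and ranges of -0.45 to 0.043, 0.27 to 0.76 and 0.31 to 1.11. Between the J14 populations 9 were lower and 8 higher at the main setting, but 12 and 5 with 50th percentile scaling. *Ezh2*, the H3K27 methyltransferase of Polycomb complex 2, was at 799 in ES-GFP+, 850 in ES-GFP- and 2474 in MGE-GFP+ cells. The probes of *Bmi1* were at 878, 949 and 2412 and at 969, 514 and 2195, and *Ring1*, a ubiquitin ligase subunit, at 1575, 1275 and 395. *Cbx7*, a reader subunit, was at 205, 576 and 46.4, above the control range in ES-GFP- cells alone.

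Genes that flank the clusters mostly differed by less than 4-fold. Of 10 flanking genes, 6, 6 and 5 were above the control percentile, with medians of 0.47, -0.025 and -0.54 that became -0.049, 0.099 and 0.11 after quantile normalization (ranges of -0.13 to 0.47, -0.14 to 0.28 and -0.54 to 0.21). Averaged over its probes, none was at least 4-fold different from above the control range. Beside *Hoxa*, *Skap2* was at 835, 655 and 338 in ES-GFP+, ES-GFP- and MGE-GFP+ cells, and the brighter probe of *Snx10* at 406, 597 and 89.5. That probe was 4.55-fold lower in MGE-GFP+ than in ES-GFP- cells, and the mean with its other probe, within the control range, 3.22-fold. Beside *Hoxc*, *Smug1* was at 1783, 978 and 944 and the brighter probe of *Cbx5* at 17881, 15173 and 17348. The *Evx* genes at the 5′ ends of *Hoxa* and *Hoxd* were within the control range on every array. So were both measured antisense RNAs, *Hoxa11os* (301, 136 and 115) and *Hoxd3os1* (68.9, 4.40 and 2.90), with median log2 differences of 1.73, 0.31 and -1.58 (ranges of 0.67 to 2.73, 0.13 to 0.61 and -2.61 to -0.38). At the main setting the second value is that of *Hoxa11os* alone, and *Hoxd3os1* entered the others as a bound. The other 7 of the list were not analysed here. Of 32 probes for unnamed transcripts within 100 kb of a positioned *Hox* probe, 4, 8 and 5 were above the control percentile (12.5%, 25% and 15.6%, compared with 36.8%, 46.9% and 43.3% of all mouse probes). Of the 32, 15 lie in chr6:52046805-52072744 (mm9), 39.9 kb from the *Hoxa2* probe, where the counts were 1, 4 and 1.

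The labelled populations carried their defining genes. All 7 MGE genes were above the control percentile on each array and higher in both GFP+ populations than in ES-GFP- cells, with medians of 2.13 and 2.98 (ranges of 1.69 to 2.29 and 2.36 to 3.28). *Nkx2-1*, the MGE determinant, was at 3673 in ES-GFP+, 1444 in ES-GFP- and 8371 in MGE-GFP+ cells, *Lhx8* at 3471, 213 and 11295, and *Dlx2* at 2658, 1137 and 6124. The probes of *Lhx6*, the gene behind the sort, gave 16913, 1373 and 25391 and 5818, 399 and 10244, while a further one, at 111947, 122188 and 97733, differed by at most 1.17-fold between arrays. Whether that probe reports *Lhx6* was not tested. The median between MGE-GFP+ and ES-GFP+ cells was 0.78 (range 0.55 to 1.52), or 1.08 at the main setting without it, a choice made after seeing the data. Of 9 forebrain genes 6, 5 and 5 were above the control percentile, with medians of 0.17, -0.57 and -0.30 (-0.27 for the first and 0.45 for the last with 50th percentile scaling) and ranges of -0.27 to 1.10, -0.57 to -0.24 and -0.45 to 0.45. *Rax*, of the hypothalamus and retina, was at 580, 110 and 43.3.

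Genes of the hindbrain and of the neural crest, where *Hox* genes are expressed, split between the J14 populations, and those above the control range were highest in ES-GFP- cells. Of 8 hindbrain genes, 3 were above the control percentile there (37.5%, compared with 57.5% of all genes), 1 in ES-GFP+ and 0 in MGE-GFP+ cells, with summed intensities of 4400, 1552 and 194. *Nkx6-1*, of ventral progenitors, was at 279 in ES-GFP+, 1792 in ES-GFP- and 53.5 in MGE-GFP+ cells, 5.68-fold lower in ES-GFP+ and 22.9-fold lower in MGE-GFP+ than in ES-GFP- cells. It was within the control range in both GFP+ populations. Over the main setting and all alternatives run, these log2 differences ranged from -2.95 to -2.07 and from -4.51 to -3.01. *Phox2a*, of cranial motor neurons, was at 175, 297 and 42.9. Between ES-GFP+ and ES-GFP- cells 4 genes of the list were lower and 3 higher, the latter *Ptf1a* (at least 7.19-fold), *Tlx3* (at least 3.27-fold) and *Lbx1* (2.11-fold), all within the control range on both arrays. The list had medians of -0.59, -2.54 and -1.72, with ranges of -1.67 to -0.060, -3.01 to -1.07 and -1.94 to -0.32. *Atoh1*, *Tlx3* and *Ptf1a*, which mark dorsal hindbrain lineages, were not called well above background in ES-GFP- cells.

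Of 9 neural crest genes, 3 were above the control percentile in ES-GFP- cells (33.3%, compared with 57.5% of all genes) and 0 on each other array. The list had summed intensities of 959 in ES-GFP+, 3000 in ES-GFP- and 296 in MGE-GFP+ cells and medians of -0.37, -1.92 and -1.97 (ranges of -1.60 to -0.096, -2.05 to -0.66 and -2.04 to -0.28). Between ES-GFP+ and ES-GFP- cells 5 were lower and 3 higher, among the latter *Snai2* by 2.88-fold within the control range (7 and 1 after quantile normalization, with a median of -1.60, and in the deposited values, with a median of -0.74, but 4 and 4 with the brightest probe of each gene). At the main setting all 8 with a value were lower in MGE-GFP+ than in ES-GFP- cells. For *Foxd3*, *Tfap2a* and *Twist1* that direction follows from the call on the ES-GFP- array alone, and for *Ets1* it rests on 1 such probe. The brightest in the J14 populations was *Sox10*, also a gene of oligodendrocyte lineage cells, at 162, 1422 and 30.3. *Sox9* was at 62.9, 591 and 97.7, and *Twist1*, also a mesodermal gene, at 140, 475 and 4.94. *Foxd3*, *Tfap2a* and *Tfap2b* were within the control range on every array. Whether *Sox10*, *Sox9* and *Twist1*, the only genes of the list above it, came from neural crest cells was not tested. Midbrain and isthmus genes, which lie in front of the *Hox* domain, gave 4, 7 and 5 of 10 above the control percentile and summed intensities of 6914, 10365 and 4600. Lower in MGE-GFP+ than in ES-GFP- cells were all 10 at the main scaling and 9 with 50th percentile scaling or quantile normalization. For *En1* and *Pax8*, not called well above background in MGE-GFP+ cells, that direction follows from the call on the ES-GFP- array alone. The list had medians of -0.56, -1.18 and -1.11 and ranges of -1.03 to -0.19, -1.24 to -0.44 and -1.12 to -0.11. Between the J14 populations 6 were lower and 4 higher at the main setting, but 9 and 1 with 50th percentile scaling or quantile normalization. Here the named genes were *Lmx1b* (brighter probe at 495, 1203 and 196), *Otx2* (1100, 2677 and 623), *En2* (228, 417 and 115) and *Pax5* (brighter probe at 323, 432 and 130), each in ES-GFP+, ES-GFP- and MGE-GFP+ cells.

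All 7 pluripotency genes were above the control percentile in ES-GFP- cells, compared with 2 in ES-GFP+ and 3 in MGE-GFP+ cells, with medians of -0.85, -2.54 and -1.32 and ranges of -1.29 to -0.59, -2.82 to -0.080 and -1.32 to 0.34. The value nearest 0 between MGE-GFP+ and ES-GFP- cells, with 4 genes lower and 3 higher, came with the control floor, and those with normexp and in the deposited values were both -1.35. *Dppa5a* was at 185, 4732 and 39.2 and *Pou5f1* at 192, 612 and 59.2, *Esrrb* at 336, 683 and 23.0 and *Zfp42* at 287, 235 and 27.6, in ES-GFP+, ES-GFP- and MGE-GFP+ cells. The probe of *Nanog* was the brightest of the list, at 230708, 251126 and 225105, and differed by at most 1.31-fold between arrays. Whether it reports *Nanog* was not tested. Without it, a choice made after seeing the data, 1, 6 and 2 of 6 genes were above the control percentile in ES-GFP+, ES-GFP- and MGE-GFP+ cells, the summed intensities were 1893, 7793 and 1062, and the medians at the main setting were -1.17, -2.68 and -1.59. None of 9 genes of paraxial and somitic mesoderm, a tissue with its own *Hox* code, was above the control percentile on any array, with summed intensities of 784, 546 and 289, the brightest being *Uncx*, *Tbx6* and *Uncx*, and medians of 0.71, -0.37 and -1.07 (the first -0.22 after quantile normalization, with ranges of -0.28 to 1.17, -0.37 to 0.062 and -1.07 to 0.25) among values that were all within the control range. The sorted populations are mixtures, in which fewer cells of a type and less RNA per cell cannot be told apart, and the part of the hindbrain, neural crest and pluripotency genes in the *Hox* differences was not tested.

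**Figure D4:**
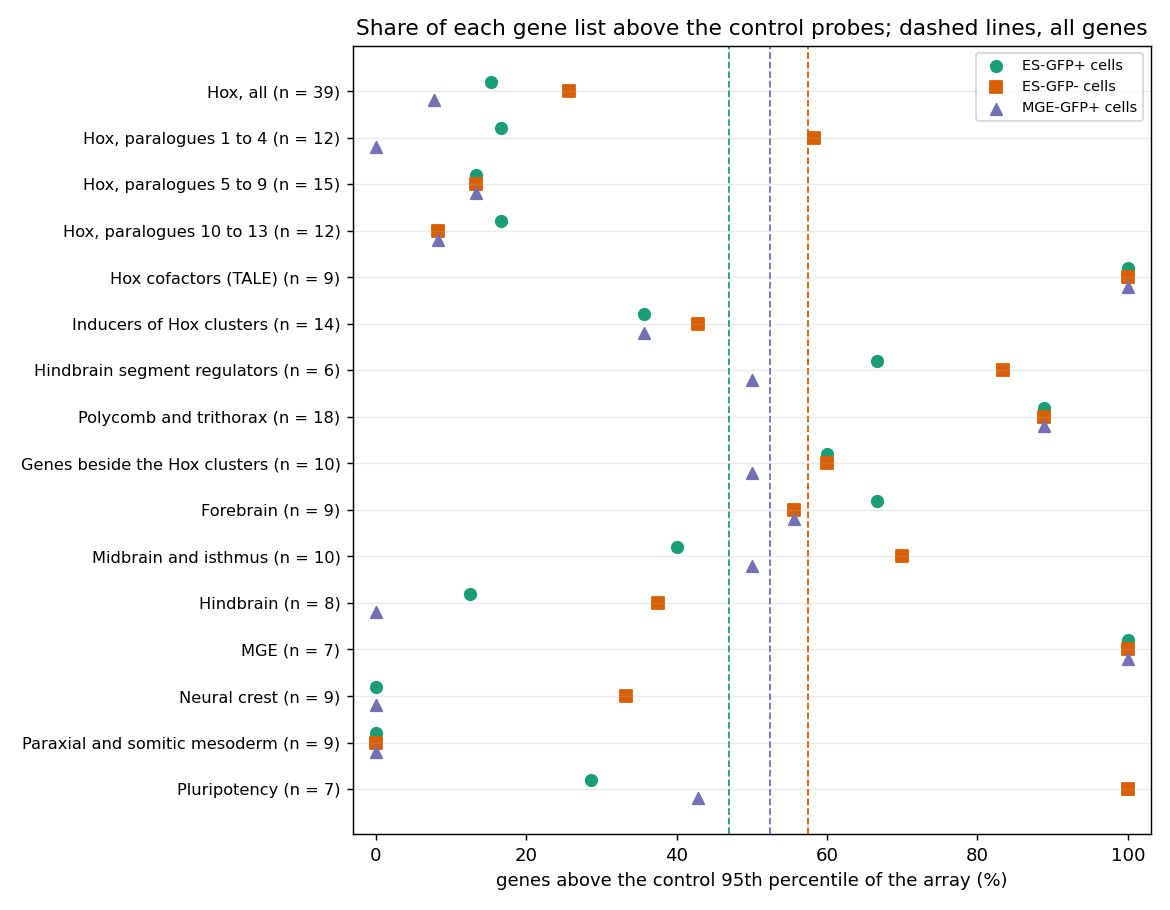
Percent of the measured genes of each list with at least 1 probe above the 95th percentile of the control probes, with 1 point per array (ES-GFP+, ES-GFP- and MGE-GFP+ stand for the 3 sorted populations) and dashed lines at the share of all genes on each array, 47.0%, 57.5% and 52.5%. The *Hox* genes of paralogues 1 to 4 are at 16.7%, 58.3% and 0% in ES-GFP+, ES-GFP- and MGE-GFP+ cells, and the *Hox* genes of higher number at or below 16.7% on every array.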

How the data were processed

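Total RNA of the 3 sorted populations was amplified, labeled with Cy3 and hybridized to one-color Agilent mouse arrays, 1 per population. The paper gives whole transcriptome amplification and the 8×60 K format, while the labels name a low-input kit and a smaller format. The authors scanned the arrays and deposited intensity values per spot from Agilent Feature Extraction (10.7.3.1 per the file headers), background-subtracted, on a linear scale and not scaled between arrays. The authors also deposited normalized log2 values, used as an alternative. Their medians were 7.69, 7.68 and 7.69 in ES-GFP+, ES-GFP- and MGE-GFP+ cells, and every value was within 0.212 of the log2 median spot signal after quantile normalization without background subtraction, which fixes their scale.

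Non-uniform and population outlier spots were left out (135, 137 and 98 mouse spots), none of the spots was saturated, and log2 intensities of repeat spots were averaged. The 75th percentile of the mouse probes was subtracted from each array. The software's call of well above background on at least a share of 0.5 of its spots was taken for a probe (90.6%, 80.3% and 77.1% of 55681 probes). A probe without the call was raised to the lowest called value of its array, and no difference was given where both arrays lacked the call. RefSeq accessions (GRCm38.p6) named 26576 probes and 20141 genes. The SD of log2 intensity over repeat spots was 0.140, 0.142 and 0.144. All arrays came from 1 slide and 1 scan, so no block was possible.

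The *Hox* genes, the 13 gene lists and all thresholds were chosen with earlier results of these data known. *Hox* genes with a probe above the control percentile on any array were named with all values, and from each list up to 4 genes above it with the largest log2 difference, beside *Lhx6* and *Nkx2-1*; others appear as the brightest of a list, at a threshold or within the control range. Alternatives were other percentiles and control probes, quantile normalization, normexp (limma 3.58.1, offset 50, on the median spot signal because no mean signal column was among the columns used here), median signals, no call filter, a floor at the control percentile, the brightest probe per gene and flagged spots kept. Calculations used Python 3.11.15, numpy 2.4.6, pandas 2.3.3 and R 4.3.3. The scaling and the differences were checked on simulated data. These held no probe with different calls between arrays and no raised background, so the rule for bounds was not checked. Values of some single genes are not reported here.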

Additional observations from a re-analysis of the deposited data

How the results depend on the processing

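Across the log2 differences of the named genes, 802 values under alternatives kept their sign and moved by less than 1 SD of repeat spots, and 538 kept it and moved further. The sign changed in 30 values of 11 differences that were within 2 SDs of repeat spots at the main setting (such as *Hoxa7* and *Pknox2* between MGE-GFP+ and ES-GFP+ cells, *Hoxa13* and *Hoxc5* between MGE-GFP+ and ES-GFP- cells, and *Pax5*, *Snx10* and *Epha4* between the J14 populations), and in 9 values of differences past them. The control 99th percentile left 1, 5 and 0 *Hox* probes above it in ES-GFP+, ES-GFP- and MGE-GFP+ cells (24.0%, 26.8% and 24.8% of all mouse probes), and other control sets and background corrections left 5 or 6, 11, and 3 or 4. The median log2 difference between ES-GFP+ and ES-GFP- cells became 0.70 with 50th percentile scaling (all genes -0.18), 0.31 after quantile normalization, 0.67 with normexp, 0.85 with median signals, 0.12 in the deposited values and -0.30 with the control floor, where 9 genes have a value. The genes at least 4-fold different became 6 after quantile normalization, 1 with normexp, 2 with median signals, 3 in the deposited values and 0 with the control floor.

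Between MGE-GFP+ and ES-GFP- cells the median became -0.25, -0.17, -0.063, -0.22, -0.17 and -1.08 in the same order of settings, and the 4-fold count stayed between 4 and 9, always with *Hoxa2*, *Hoxa3*, *Hoxb2* and *Hoxb3*. Between MGE-GFP+ and ES-GFP+ cells it became -1.23 (all genes 0.40), -0.88, -0.73, -0.97, -0.47 and -1.13, and -2.44 without the call filter, and the 16 genes at least 4-fold lower became 9, 6, 4, 6, 4 and 0. The 9 sign changes of differences past 2 SDs of repeat spots were the following. *Cbx5* between the J14 populations was at -0.021 with 50th percentile scaling, and *Rarb* at -0.12 after quantile normalization and -0.073 in the deposited table. For MGE-GFP+ against ES-GFP+ cells *Hoxb4* was at 0.17 and 0.35 in those settings, *En2* at 0.14 with 50th percentile scaling and 0.058 after quantile normalization, and with 50th percentile scaling *Otx2* was at 0.30 and *Smug1* at 0.21. Apart from the control floor, which leaves fewer genes to compare, the cause was not tested. Most *Hox* probes were within the control range, where intensity does not separate a transcript from background, and with 1 array per population nothing here measures variation between cultures, embryos or sorts. No paired analysis was possible because each population has 1 array.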

Other observations

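Among the 15 probes for unnamed transcripts nearest to the *Hoxa2* probe, 3 were above the control range in ES-GFP- cells alone, as *Hoxa2* was. In all, 4 of the 15 were above it in ES-GFP- cells, compared with 46.9% of all mouse probes. The share of all probes above it in ES-GFP- cells alone was not determined here. These 3 probes were picked after their values were seen. The brightest of the 3 had an intensity of 45.1 in ES-GFP+, 687 in ES-GFP- and 30.6 in MGE-GFP+ cells. No exact fold is given for it, because it was within the control range in both GFP+ populations. The others were at 269 and 236 in ES-GFP- cells, 22.1 and 29.1 in ES-GFP+ cells and 13.4 and 8.85 in MGE-GFP+ cells. No gene name was given for these transcripts in the tables used here, and all 3 were listed in the same orientation. The fourth probe above the control range in ES-GFP- cells was above it on every array, at 436, 499 and 247 in ES-GFP+, ES-GFP- and MGE-GFP+ cells.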
